A study of Mus musculus with 12 samples.

Results

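The Igf2r and Airn locus of mouse chromosome 17 was described by the regions of RNA enriched with HP1γ that overlap positions 12870000 to 13060000 (mm9), in untreated cells and after the phorbol ester PMA. The members were chosen by position: 43 of the 10013 regions of the untreated list and 15 of the 2609 regions of the PMA list, 58 of 12622 in all. The locus itself was selected on its measured values, because it holds the widest untreated region, so its widths, region numbers and folds are given as a description with no test. All groups share 1 genotype: a cell line made from mouse embryonic fibroblasts (MEF) knocked out for HP1γ (the product of Cbx3), in which HP1γ was put back by recomplementation. The labels give 12 libraries in 4 groups of 3 biological replicates: chromatin input untreated, chromatin input with PMA, HP1γ immunoprecipitate (IP) untreated, and HP1γ IP with PMA at 100 nM for 30 min. PMA was dissolved in DMSO, and the labels do not say whether untreated cells received DMSO or whether the line is a single clone. No mock precipitation, and none from knock-out cells, was used here, so RNA held by HP1γ and RNA recovered unspecifically cannot be told apart. The lists hold no expression levels, so the fibroblast origin could not be checked against marker genes, and read depth is unknown.

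Igf2r (ENSMUSG00000023830.14) encodes the cation-independent mannose 6-phosphate receptor, which carries lysosomal enzymes and takes up insulin-like growth factor II for degradation. It is an imprinted gene, expressed in most mouse tissues from the maternal chromosome. Airn (ENSMUSG00000078247.4) is a long noncoding RNA made from the paternal chromosome in the opposite direction. It starts within an intron of Igf2r, crosses the Igf2r promoter and runs on beyond it, stays largely unspliced and in the nucleus, and its transcription silences the paternal Igf2r copy. HP1γ is a chromodomain protein that reads methylated histone H3. In RefSeq (GRCm38.p6) Igf2r lies on the minus and Airn on the plus strand, so with increasing coordinate the span begins with the 3′ end of Igf2r, where Airn is absent, and ends with the 3′ part of Airn, where Igf2r is absent. The lists carry neither strand nor allele, and gene coordinates of mm9 were not used here, so no region is assigned to 1 of the genes or to an exon, intron or UTR.

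The starts of both transcripts are shown as 300 bases each, from 250 before to 50 after the RefSeq start (GRCm38.p6, 5′ to 3′ on the strand of the gene), because they are the starts of the 2 transcripts that run against each other in the span. Capitals mark each CG, the dinucleotide at which imprinted promoters are methylated.
Igf2r: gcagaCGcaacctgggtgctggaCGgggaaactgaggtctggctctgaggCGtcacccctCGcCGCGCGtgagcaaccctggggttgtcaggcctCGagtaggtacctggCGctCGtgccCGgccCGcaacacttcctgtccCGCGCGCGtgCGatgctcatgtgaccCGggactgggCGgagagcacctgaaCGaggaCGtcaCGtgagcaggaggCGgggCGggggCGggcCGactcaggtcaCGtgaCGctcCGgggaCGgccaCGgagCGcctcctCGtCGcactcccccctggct
Airn: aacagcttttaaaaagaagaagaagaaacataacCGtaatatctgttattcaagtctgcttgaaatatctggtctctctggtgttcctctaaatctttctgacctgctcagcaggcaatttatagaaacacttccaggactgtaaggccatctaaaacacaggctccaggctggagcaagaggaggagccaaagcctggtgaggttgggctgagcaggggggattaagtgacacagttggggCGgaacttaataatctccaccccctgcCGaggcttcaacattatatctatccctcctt
The Igf2r window holds 34 CG, a number that 7.73% of 32851 RefSeq promoter windows of this length reach or pass. The Airn window holds 3, and 76.7% of windows have as many or more. Any CG was found in 94.6% of windows, with a median of 7. These letters describe the windows only, which were not placed on the mm9 lists. CG beyond the windows were not counted and methylation was not measured, so nothing on imprinting is read from these numbers.

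RNA enriched with HP1γ lay mostly in the middle of the span, away from the Igf2r 3′ end. The first 64.2 kb, the side of the Igf2r 3′ end, held no region in untreated cells, and the first 67.2 kb held none after PMA. From position 12934248 the untreated regions followed each other closely: 41 of the 43 lay in a stretch of 77.5 kb that ended at 13011699, with no gap over 10 kb, and they covered 69.0% of it. After PMA 14 of the 15 regions lay between 12937159 and 13011456 and covered 32.0% of that stretch. Beyond it stood a region at 13033045 to 13033523 in the untreated list only, after a gap of 21.3 kb, and a region present in both lists, which ended at 13046345 untreated and at 13046295 after PMA. The last 13.7 kb of the span were empty in both lists.

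**Figure D1:**
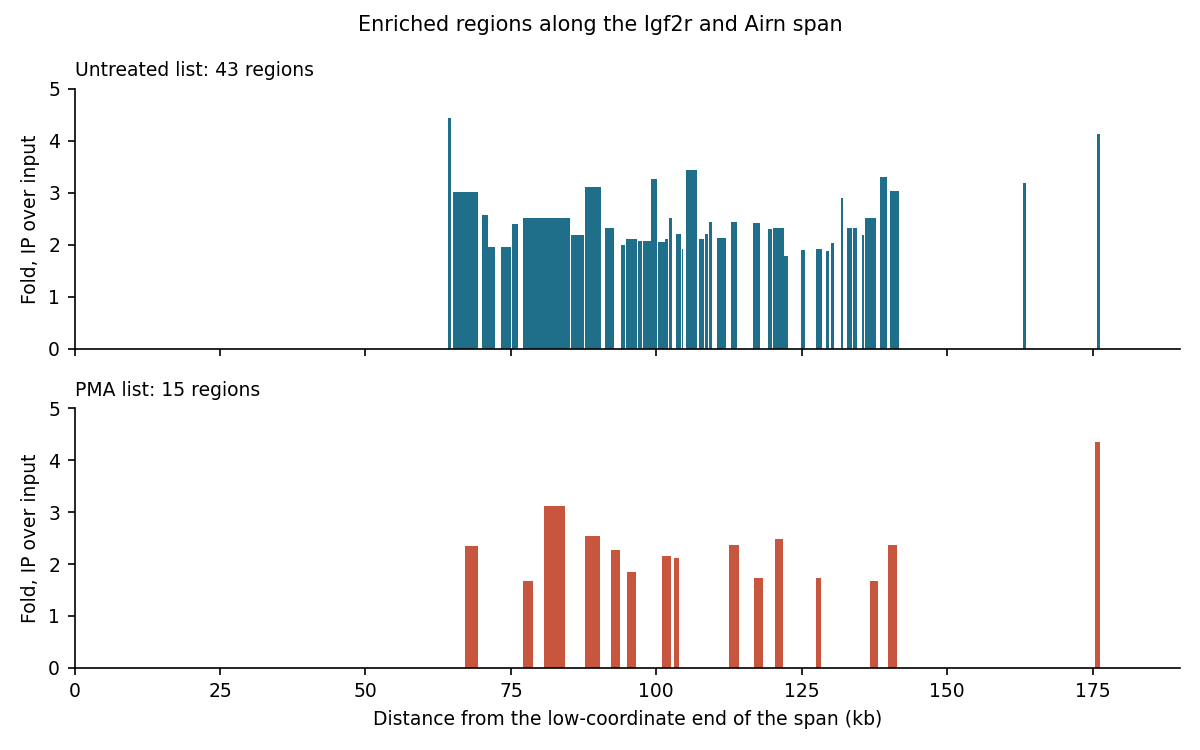
Regions of the untreated list (top) and the PMA list (bottom) along the Igf2r and Airn span; the x axis gives the distance from its low-coordinate end in kb, bar width is the region's width and bar height its fold enrichment of IP over input, as the authors' value per region. The 43 untreated and 15 PMA regions lie in the same part of the span, and none lies in its first 64.2 kb.

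In untreated cells the empty side was also poor in called peaks, which is not known for PMA. Peaks of each replicate are numbered along the genome, and each region lists the peaks joined in it, so a jump in the numbers counts peaks that were called and are in no listed region. Whether these were never joined, or joined in a region that was then filtered out, the lists do not show. Between the nearest untreated region below the span, which ended at 12511643, and the first of the locus, a stretch of 423 kb, replicate 2 had no further peak, replicate 3 at most 3 and replicate 1 at most 8. In the PMA list the nearest region below ended at 12384178, and the numbers allow up to 32 peaks of replicate 2 and 46 of replicate 3 in the 553 kb before the first PMA region of the locus. Their places are unknown, and all of them could lie in the part of the span that holds no PMA region. Above the span the next regions began at 13142957 (untreated, fold 2.54) and 13143367 (PMA, fold 3.42), 83.0 and 83.4 kb outside its edge. A span wider by less than 83.0 kb on each side would hold the same regions. The last regions below it had folds of 3.11 and 4.67.

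Within the stretch, untreated regions were wide. Their widths ran from 258 to 8150 bp with a median of 927 bp (95% order-statistic interval 672 to 1216), and 34 of 43 were wider than the median of the whole list, 528 bp. Regions of at least 1000 bp numbered 20 of 43 (46.5%), against 7.36% of the untreated list. Among the PMA regions of the locus the median was 1555 bp (1339 to 1682) against 780 bp in the PMA list, all 15 were above the latter, and 12 of 15 reached 1000 bp, against 27.4% of the PMA list. The locus thus held 0.429% of untreated regions and 0.919% of the bases they cover, and 0.575% and 1.08% after PMA.

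The widest region of the whole untreated list lay at 12947058 to 12955207. It was 8150 bp wide, with a fold of 2.52 and a mean −log10 q of 10.9, where q is the adjusted p of the authors' peak caller. Its 15 member peaks came unevenly from the replicates: 1 from replicate 1, 7 from replicate 2 and 7 from replicate 3. The other regions of the untreated list had at most 15 members as well. The next widest of the locus was the region at 12935060 to 12939426, 4367 bp wide and 7th of the list, with a fold of 3.02 and 9 members (3, 2 and 4 from replicates 1, 2 and 3). Then came regions of 2643 bp (12957789 to 12960431, fold 3.12), 2180 bp (12955335 to 12957514, fold 2.20) and 2000 bp (12964720 to 12966719, fold 2.11), which ranked 20th, 38th and 49th. All 5 lay at the low-coordinate end of the stretch, with their ends at or before 12966719. The second widest region of the list, elsewhere on chromosome 1, measured 6007 bp.

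Enrichment was low for these lists. Untreated folds in the locus ran from 1.77 to 4.44 with a median of 2.32 (2.11 to 2.45), and 41 of 43 lay below the list's median of 3.65. Only 3.78% of all untreated regions had a fold under the median of the locus. After PMA the folds ran from 1.67 to 4.34 with a median of 2.26 (1.74 to 2.48) against 3.50 in the list, and 14 of 15 lay below the latter. The low folds did not go with weak evidence: the median −log10 q was 5.41 in the locus and 3.59 in the untreated list, and 6.39 and 4.24 after PMA. Nor were they shared by wide regions in general. The 932 untreated regions elsewhere of at least 927 bp had a median fold of 3.68 (interquartile range 3.06 to 4.32), and the 138 PMA regions elsewhere of at least 1555 bp had 3.62 (2.92 to 4.12). The very widest untreated regions were different: the 10 widest, 2 of them in this locus, had folds of 1.63 to 3.02 with a median of 1.98. Those outside the locus, on chromosomes 1, 10 and X, had folds of 1.63 to 2.15, all below the 2.52 and 3.02 of the 2 inside. Very wide regions of low fold are thus not particular to the locus. The 10 widest PMA regions, 2 of them also in this locus, had folds of 1.74 to 5.36 with a median of 3.56, close to that of their list. Across the 43 untreated regions, width and fold were weakly related (Spearman rho = 0.16), and width rose with the number of member peaks (rho = 0.68), which is partly how regions are built. These points share their libraries and are given as a description.

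**Figure D2:**
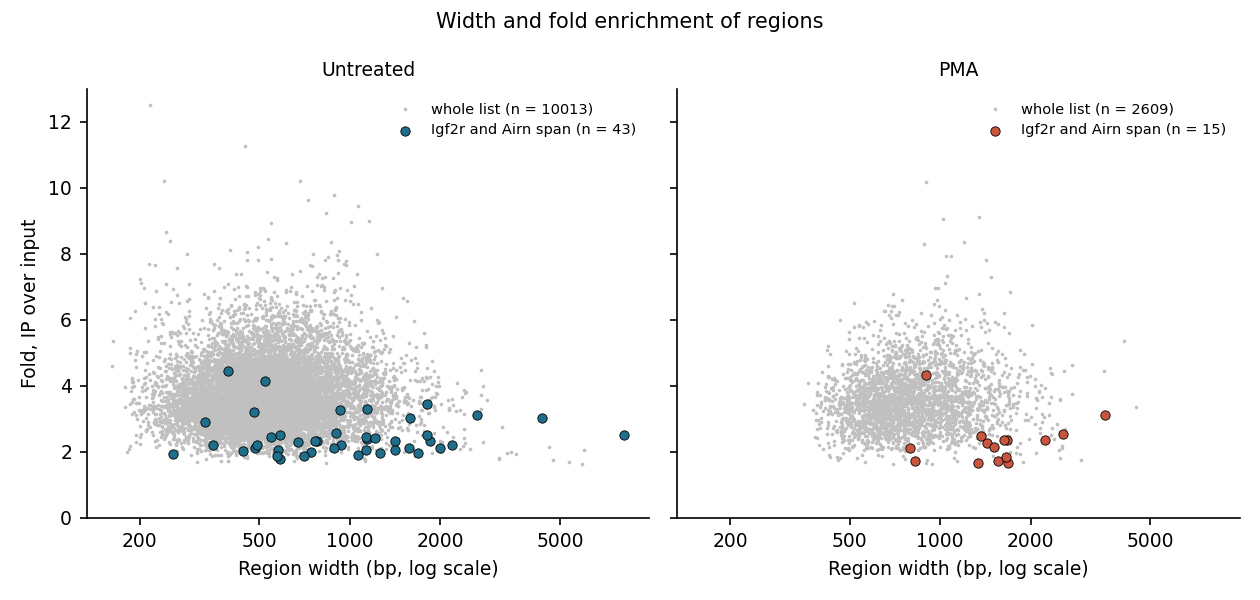
Width (x axis, bp, log scale) against fold enrichment of IP over input (y axis) for each region of the untreated list (left) and PMA list (right); grey points are the whole list and coloured points the Igf2r and Airn span. Of the locus, 41 of 43 untreated and 14 of 15 PMA regions lie below their list's median fold (3.65 and 3.50), and the 8150 bp region stands farthest to the right.

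In the untreated list, fold was highest at both ends of the occupied part of the span. The first untreated region, 393 bp at 12934248 to 12934640, had the highest fold of the locus, 4.44, with a −log10 q of 19.0 that ranked 26th of the list. The last, 523 bp at 13045823 to 13046345, had the second highest, 4.13, with a −log10 q of only 3.37. The next 3 were inside the stretch: 3.44 at 12975148 to 12976947 (1800 bp, −log10 q 18.5), 3.31 at 13008478 to 13009615 (1138 bp, 49th of the list by −log10 q) and 3.26 at 12969153 to 12970079 (927 bp, 13.6). Among the PMA regions the last had the highest fold, 4.34, but the first, at 12937159, had 2.35 and was only the 7th of the 15, and the second highest, 3.12, lay inside the stretch at 12950716. In windows of 10 kb the most regions, 9, had their centre between 100 and 110 kb from the low end of the span, while coverage peaked earlier, at 96.0% of bases between 80 and 90 kb, where the widest region lies. PMA regions covered most, 57.2%, in that same window, and no 10 kb window held more than 2 of them.

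Untreated regions of the locus more often joined extra peaks than those of the list. More than 3 members were joined in 22 of 43 (51.2%, exact 95% interval 35.5 to 66.7, counting error only), against 22.5% of the list. Width was part of how the locus was selected, and member number rose with width (rho = 0.68). The regions also share their libraries, so nothing is read from this contrast. A member peak from each of the 3 replicates was found in 42 of 43 regions (97.7%, 87.7 to 99.9, counting error only), against 91.9% of the list. Nothing is read from this contrast either. The exception, at 12989192 to 12989863, had none from replicate 3. The extra members came from replicates 2 and 3: 2 or more peaks of a replicate were joined in 16 and 18 regions for these, and in 5 for replicate 1. Over the whole list the order was the opposite, with 1836 such regions for replicate 1, 1169 for replicate 2 and 819 for replicate 3. In the PMA list no member peak of replicate 1 occurs anywhere, and a region must still gather 3. Of the 15 PMA regions of the locus 3 had more than 3 members, against 16.4% of the list, and 11 consisted of 2 peaks of replicate 2 and 1 of replicate 3.

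Every PMA region of the locus lay on an untreated one. All 15 shared 1 bp or more with an untreated region, against 54.8% of the PMA list, and 85.9% of their bases were shared. Dense and wide regions meet more often by construction. Of the 15, 14 lay in the stretch that untreated regions covered to 69.0%. The median gap between untreated regions was 451.5 bp, and those 14 PMA regions were 795 to 3521 bp wide. The remaining one, at 13045398 to 13046295, lay beyond the stretch and shared 473 bp with an untreated region of 523 bp. How many overlaps density alone would give was not tested. The share of 54.8% comes from a list that is mostly less dense, so nothing is read from the contrast. Of the 43 untreated regions 16 (37.2%, exact 95% interval 23.0 to 53.3, counting error only) met a PMA region, against 15.5% of the untreated list. Of the untreated bases 38.9% were shared. The median width was 1316.5 bp for the 16 with a partner and 744 bp for the 27 without, and a wider region meets a partner of 1 bp more often by construction. The order did not hold region by region: the one of 2180 bp, 4th widest of the locus, had no partner, while regions of 482 and 523 bp had one. By fold, 4 of the 5 highest untreated regions had no partner. The medians went the other way, 2.43 for the 16 with a partner and 2.20 for the 27 without. The 8150 bp region met a pair of PMA regions, 12947074 to 12948755 (1682 bp) and 12950716 to 12954236 (3521 bp), which together lay on 63.8% of it. The latter was the third widest of the PMA list, joined 3 peaks from each of replicates 2 and 3, and its −log10 q of 22.6 was the 8th highest of the list. Conversely 1 PMA region, 12971034 to 12972540, bridged 3 untreated regions.

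The fold after PMA was lower than that of the strongest untreated partner in 12 of 15 cases and higher in 3. The differences ran from −0.86 to 0.61 with a median of −0.27. The widest gaps downwards were at 13006757 to 13008095 (1.67 after PMA, 2.52 untreated), at 12947074 to 12948755 (1.67 and 2.52), at 12986814 to 12988368 (1.72 and 2.41), at 12937159 to 12939381 (2.35 and 3.02), at 13009831 to 13011456 (2.37 and 3.03) and at 12957802 to 12960370 (2.55 and 3.12). The 3 upward cases were 12950716 to 12954236 (3.12 and 2.52), 12990463 to 12991829 (2.48 and 2.33) and the outlying 13045398 to 13046295 (4.34 and 4.13). At the remaining 6, PMA folds were 1.74 to 2.37 and lay 0.06 to 0.36 below those of their partners. Folds are means over different numbers of member peaks and of replicates, the untreated strongest partner was picked for its fold where several overlapped, and no replicate error is given, so no change at a region could be tested. The share of PMA regions below their partner was not computed over the whole lists. Their median folds were 3.50 after PMA and 3.65 untreated. The 12 of 15 are therefore not read as particular to the locus.

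**Figure D3:**
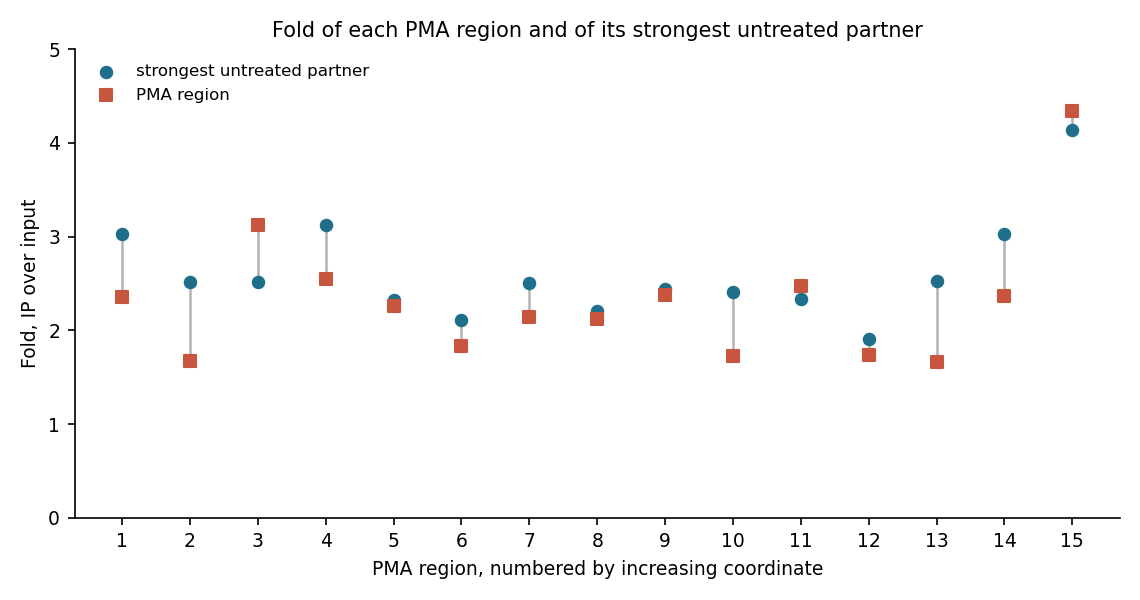
Fold enrichment of IP over input (y axis) of the 15 PMA regions of the locus (squares), numbered by increasing coordinate on the x axis, and of the strongest untreated region that overlaps each (circles); grey lines join a pair. The PMA value is the lower one in 12 pairs, and the last pair stands above the others at 4.34 and 4.13.

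The numbers of the member peaks gave a count of called peaks per replicate, whether listed or not, between ends that are set by joined peaks. From the first to the last joined peak of the locus, untreated replicates 1, 2 and 3 had 73, 81 and 74 called peaks, and PMA replicates 2 and 3 had 71 and 72. The groups did not overlap, by 1 peak, but the untreated extent was also longer, 112 kb against 109 kb. Between the same end regions, those that pair with the first and last PMA region, the untreated counts were 72, 80 and 73 (75.0 ± 4.36, SD, n = 3) and the PMA counts stayed at 71 and 72 (mean 71.5), so that the groups met at 72. The means differed by 3.5 peaks. With 3 and 2 values, and PMA replicate 1 absent, this does not show whether the number of called peaks changed, which was not tested. The region number went from 43 to 15. The 5 replicates differed far more over the whole genome, where the highest peak numbers were 87348, 40773 and 33450 for untreated replicates 1 to 3, and 49502 and 92243 for the PMA ones. Per 10000 peaks called, the locus held 8.36, 19.9 and 22.1 in the untreated replicates and 14.3 and 7.81 after PMA, ranges that overlap.

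**Figure D4:**
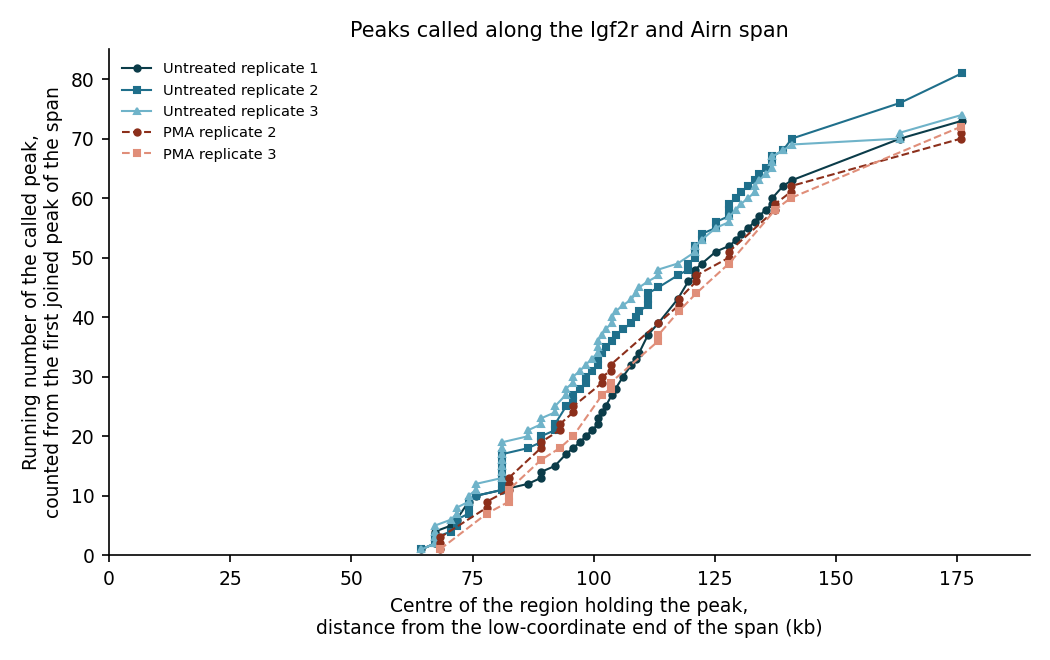
Running number of the called peaks of each replicate (y axis, counted from its first joined peak in the locus) against the centre of the region that holds the peak (x axis, kb from the low-coordinate end of the span); points are joined peaks, and jumps between points are called peaks that are in no listed region. The 3 untreated and 2 PMA replicates rise together along the occupied stretch and end at 73, 81, 74, 71 and 72.

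The share of these peaks that was joined into listed regions was lower in the PMA replicates. In untreated replicates 1, 2 and 3, 49, 68 and 69 of the called peaks of the locus were members of a region (67.1%, 84.0% and 93.2%), and in PMA replicates 2 and 3, 31 and 19 (43.7% and 26.4%). Both PMA shares lay below all 3 untreated ones. Over the whole lists the shares were 13.6%, 27.1% and 31.3% untreated and 8.85% and 4.34% after PMA, in the same order. The lower share is thus not particular to the locus. PMA regions must also gather 3 members from 2 replicates, which lowers the share by construction, and other causes were not tested.

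**Figure D5:**
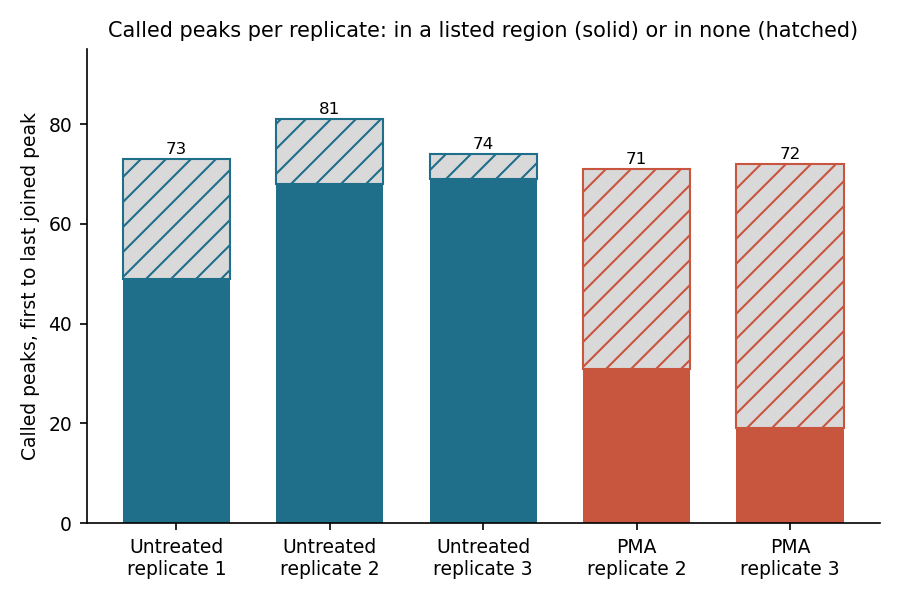
Called peaks of each replicate between its first and last joined peak in the locus (y axis, number of peaks), split into peaks joined in a listed region (solid) and peaks in no listed region (hatched); totals stand above the bars. The totals are 71 to 81, while the joined part is 49 to 69 in the untreated replicates and 31 and 19 in PMA replicates 2 and 3.

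Called PMA peaks that are in no listed region were spread along the locus. The 15 PMA regions leave 14 stretches between them, and in 13 of these both PMA replicates had at least 1 such peak, 40 peaks of replicate 2 and 53 of replicate 3 in all. Untreated regions without a PMA partner lie in the same stretches by definition, apart from any outside the first and last PMA region. Of the 27, 26 lay there, in 10 of the stretches, and the first region of the locus with its fold of 4.44 lay before all PMA regions. In each of the 10, either PMA replicate had at least as many unlisted peaks as there were untreated regions without a partner. For replicate 2 the numbers were equal in 7 of the 10: 6 and 6 between 12973907 and 12982504, 6 and 6 between 12998329 and 13006756, 4 and 4 between 12939382 and 12947073, 3 and 3 between 12966574 and 12971033, 2 and 2 between 12991830 and 12997504, and 1 and 1 in the remaining pair. For replicate 3 they were equal in 3. In the other 3 stretches, 1 untreated region without a partner stood against 4 and 4 peaks of replicates 2 and 3 between 12954237 and 12957801, against 2 and 2 between 12988369 and 12990462, and against 7 and 11 in the 33.9 kb from 13011457. Between 12998329 and 13006756 replicate 3 had 8 peaks against the 6 regions. A further 3 stretches without such an untreated region held 1 and 1, 1 and 1, and 2 and 3 peaks. The stretch of 8.60 kb from 12973907 included the 1800 bp untreated region with a fold of 3.44, and the stretch of 1.74 kb from 13008096 the one with 3.31. Longer stretches tended to hold more of both, and 40 and 53 unlisted peaks stood against 26 such regions. How many equal numbers density alone would give was not tested, and nothing is read from the matches. Positions of unlisted peaks within a stretch are not given, so their overlap with the untreated regions was not tested.

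A PMA region needs 2 peaks of the same replicate, while 20 of the 43 untreated regions had exactly 1 peak from each replicate. The numbers 43 and 15 are therefore not on an equal footing. Over the whole untreated list 7003 of 10013 regions had 1 peak from each replicate, a larger share. This limit is thus not particular to the locus. With 1 untreated replicate left out, 3 members were still required. Without replicate 1, 2 and 3, 22, 18 and 16 untreated regions remained, each above the 15 after PMA. They made up 1.46%, 0.905% and 0.676% of reduced lists of 1505, 1988 and 2367 regions, against 0.575% of the 2609 PMA regions. Each reduced list was shorter than the PMA list. With the untreated list limited to its 2609 highest −log10 q values, 25 regions of the locus remained, 0.958% of that list. Bounds in the reduced lists were still joined over 3 replicates and read depth is unknown. A change after PMA was not tested, and these counts are not read as a drop. When regions of a list less than 1 kb apart were joined, the direction turned, to 10 untreated and 14 PMA stretches. Of the 42 gaps between untreated regions 33 were under 1 kb, and of the 14 gaps between PMA regions 1. The widest joined untreated stretch then measured 19999 bp (12963919 to 12983917, 60 member peaks) and was the widest of the 8702 joined untreated stretches, while the widest joined PMA stretch of the locus was still 3521 bp.

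Among windows of 190 kb laid end to end over the chromosomes, leaving out the one over the locus, 3274 held a region of either list. Only 1 of them had as many untreated regions as the locus (44), and none had as many PMA regions (13 at most). The span was placed to hold the whole locus and the windows were not, so these counts favour the locus. In the 23 windows with at least 20 untreated regions the median fold was 2.15 to 3.88, below the 2.32 of the locus in 1, and the median width reached its 927 bp in 1. In the 15 windows with at least 8 PMA regions neither a lower median fold nor as large a median width was found. The PMA list held 34.9% as many regions as the untreated list in the locus, 26.1% over all chromosomes and 0 to 52.2% (median 29.0%) in the 23 dense windows.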

How the data were processed

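The 2 peak lists in narrowPeak layout were made 1 per condition, each for HP1γ IP against input RNA. Per the submitters' processing notes, cutadapt 1.11, STAR 2.5.0a, featureCounts 1.4.6-p3, MACS2 2.1.0 and the build mm9 were used. Neither their roles nor their settings are stated in these notes. As the deposited member names show, peaks were called per replicate and joined. The deposited score, multiplied by the number of member peaks, is whole within 0.001 in every region, so the deposited score, fold (a ratio of IP over input) and −log10 q are read as the authors' means over member peaks.

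Regions overlapping the span by at least 1 bp were taken, starts are 1-based, and partners overlap by at least 1 bp. Member peak numbers rise along each chromosome without exception in every replicate; its highest number is a lower limit of the peaks called. Regions named are all PMA regions of the span with their partners, and the 5 widest and 5 highest by fold of the untreated list. Medians carry order-statistic intervals and shares exact Clopper-Pearson 95% intervals. Python 3.11.15, pandas 2.3.3, numpy 2.4.6, scipy 1.17.1 and matplotlib 3.10.9 were used, and the functions were tested on simulated lists. With 1 list per condition no test was run. The members, lists and settings were chosen with earlier results of these data known.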

Additional observations from a re-analysis of the deposited data

How the results depend on the processing

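Of 48 alternative values for 8 results, 26 stayed within 1.5 times a count or within the 95% interval of a median. Without 1 untreated replicate, the locus held 16 to 22 untreated regions with a median width of 1336.5 to 1494 bp, with bounds and folds still joined over 3 replicates. Without 1 PMA replicate, 1 or 2 PMA regions kept 3 members, with median widths of 2872 to 3521 bp and folds of 2.74 and 3.12, since 3 members must then come from 1 replicate. Over both kinds of left-out replicate, 1 to 11 untreated and 1 to 12 PMA regions had a partner. With the untreated list limited to its 2609 highest −log10 q values, 25 untreated regions of the locus remained. Joining regions less than 1 kb apart left 10 untreated stretches of 3252.5 bp in the median, 8 of them with a partner. Counting partners within 1 kb gave 28 untreated regions. The low median fold of untreated regions stayed between 2.12 and 2.45 under every alternative that gave one. No paired analysis was possible because no result comes from a test; the called peaks per replicate, which exist for replicates 2 and 3 in both lists, are given above as counts.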
